A study of Mus musculus with 48 samples.

Results

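The carnitine shuttle carries long-chain fatty acids into mitochondria, where they are oxidized. Carnitine enters the cell through the plasma membrane transporter SLC22A5, carnitine palmitoyltransferase 1 (CPT1) moves the acyl group from CoA to carnitine at the outer membrane, the carrier SLC25A20 exchanges acylcarnitine for free carnitine across the inner membrane, and CPT2 returns the acyl group to CoA. CRAT, carnitine acetyltransferase, handles short acyl groups. In liver, CPT1A is the main CPT1 form and is held back by malonyl-CoA, whereas CPT1B is the muscle form, and several genes of the shuttle are known targets of the nuclear receptor PPARα.

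These 6 genes (Cpt1a, Cpt1b, Slc25a20, Cpt2, Crat and Slc22a5) were taken by the gene name that the array design gives a probe, and the rule sets no threshold on a measured value. They stand among 37074 gene names on the array and 22029 with a tested probe, and all 6 had a tested probe. Together they had 9 probes, 1 each for Cpt1a, Cpt1b and Slc25a20 and 2 each for Cpt2, Crat and Slc22a5. A gene is reported by its probe with the highest mean signal, and the other probe is given beside it.

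Liver RNA of 48 male C57Bl6J mice was measured on one-colour arrays, 8 mice in each of 6 groups. The 3 genotypes were wild type (WT), mice labelled PPARaLKO (written Pparα hep-/- here, with the floxed gene removed by an albumin-Cre transgene, which is active in hepatocytes) and mice labelled PPARaKO (Pparα-/-, without the gene in any tissue). Each genotype received a control diet (CTRL) or a high-fat diet (HFD) with 60% of fat, per the labels for 12 weeks, and all mice were 20 weeks old and were housed at thermoneutrality. The study's text gives a shorter time on diet than the labels. WT mice came from a supplier and the mutants from the laboratory's own colony, so genotype and origin cannot be told apart, and no floxed mice without Cre are among the groups.

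The values are log2 intensities after quantile normalization over the 48 arrays, and a fold change is 2 raised to such a difference. Differences were estimated with limma, with a term for the wash batch of the slide and a weight for each array (weights 0.189 to 2.53), so a fitted difference is not exactly the difference between plain group means. A difference counted as called when its adjusted p reached 0.05 or less, by the Benjamini-Hochberg method over the 33323 tested probes. Each error after a difference is its standard error, and n = 8 mice per group. No member probe had a missing value or a saturated spot, and the number of arrays limits the precision.

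Sequences are shown for 2 probes, that of Slc25a20, which showed the largest differences from WT, and the dimmer probe of Crat, whose calls did not all match those of the brighter probe. Each reads without a stop codon in at least 1 frame, and positions are those of mm9 in the scanner files.
Slc25a20 probe, chr9:108585399-108585458, plus strand: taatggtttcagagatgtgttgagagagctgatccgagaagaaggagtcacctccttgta
Crat dimmer probe, chr2:30265479-30265538, minus strand: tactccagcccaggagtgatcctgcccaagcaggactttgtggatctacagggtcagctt

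PPARα binds DNA with its partner RXR at a direct repeat whose copies are 1 base apart, the DR1 element. RefSeq promoters of GRCm38.p6, from 250 bases before to 50 bases after the start, were found for 4 of the 6 genes (Cpt1a, Slc25a20, Cpt2 and Slc22a5), and Cpt1b and Crat had none in the table. They were searched on both strands for AGGTCANAGGTCA with at least 10 of its 12 fixed bases matched. Of the 4, the Slc25a20 window held a match, and 3.9% of all 32851 windows held one. It is printed here because Slc25a20 differed most from WT in both knockouts, with the whole 13-base stretch in capitals, the 2 unmatched letters included, which starts 7 bases into the transcript on its own strand. A match is a description of the letters, not a site.
Slc25a20 promoter, chr9:108661886-108662185, plus strand: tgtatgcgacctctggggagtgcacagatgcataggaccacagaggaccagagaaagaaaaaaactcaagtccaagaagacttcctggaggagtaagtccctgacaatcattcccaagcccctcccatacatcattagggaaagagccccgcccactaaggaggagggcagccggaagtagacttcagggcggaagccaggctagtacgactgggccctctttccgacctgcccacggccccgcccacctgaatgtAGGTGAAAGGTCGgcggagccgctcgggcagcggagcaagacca

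Ppara itself, the targeted gene, was read by 2 tested probes, and whether either lies in the deleted exon was not determined here, so neither is a full check of the genotype. On the brighter probe the level in WT mice on CTRL ran from 14.03 through a median of 14.54 to 15.07, in Pparα hep-/- mice from 13.26 through 14.11 to 14.28, and in Pparα-/- mice from 13.53 through 13.92 to 14.09. On HFD the corresponding values were 14.65, 15.07 and 15.24 in WT, 14.11, 14.24 and 14.54 in Pparα hep-/-, and 13.83, 14.03 and 14.27 in Pparα-/- mice. WT mice were highest on both diets, and on HFD their range did not overlap that of either knockout. Relative to WT the signal was 1.57-fold lower in Pparα-/- mice on CTRL (adjusted p = 1.10e-06) and 2.11-fold lower on HFD (adjusted p = 2.77e-14). In Pparα hep-/- mice it was lower by 0.42 on CTRL (adjusted p = 0.000887) and 0.85 on HFD (adjusted p = 5.12e-10). The dimmer probe was lower by 1.11 and 1.29 in Pparα-/- mice on CTRL and HFD and by 0.68 in Pparα hep-/- mice on HFD (adjusted p = 3.34e-08), and in Pparα hep-/- mice on CTRL it differed by -0.10 (adjusted p = 0.454).

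The plot of the members by mouse gives all 48 values of each gene.

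**Figure D1:**
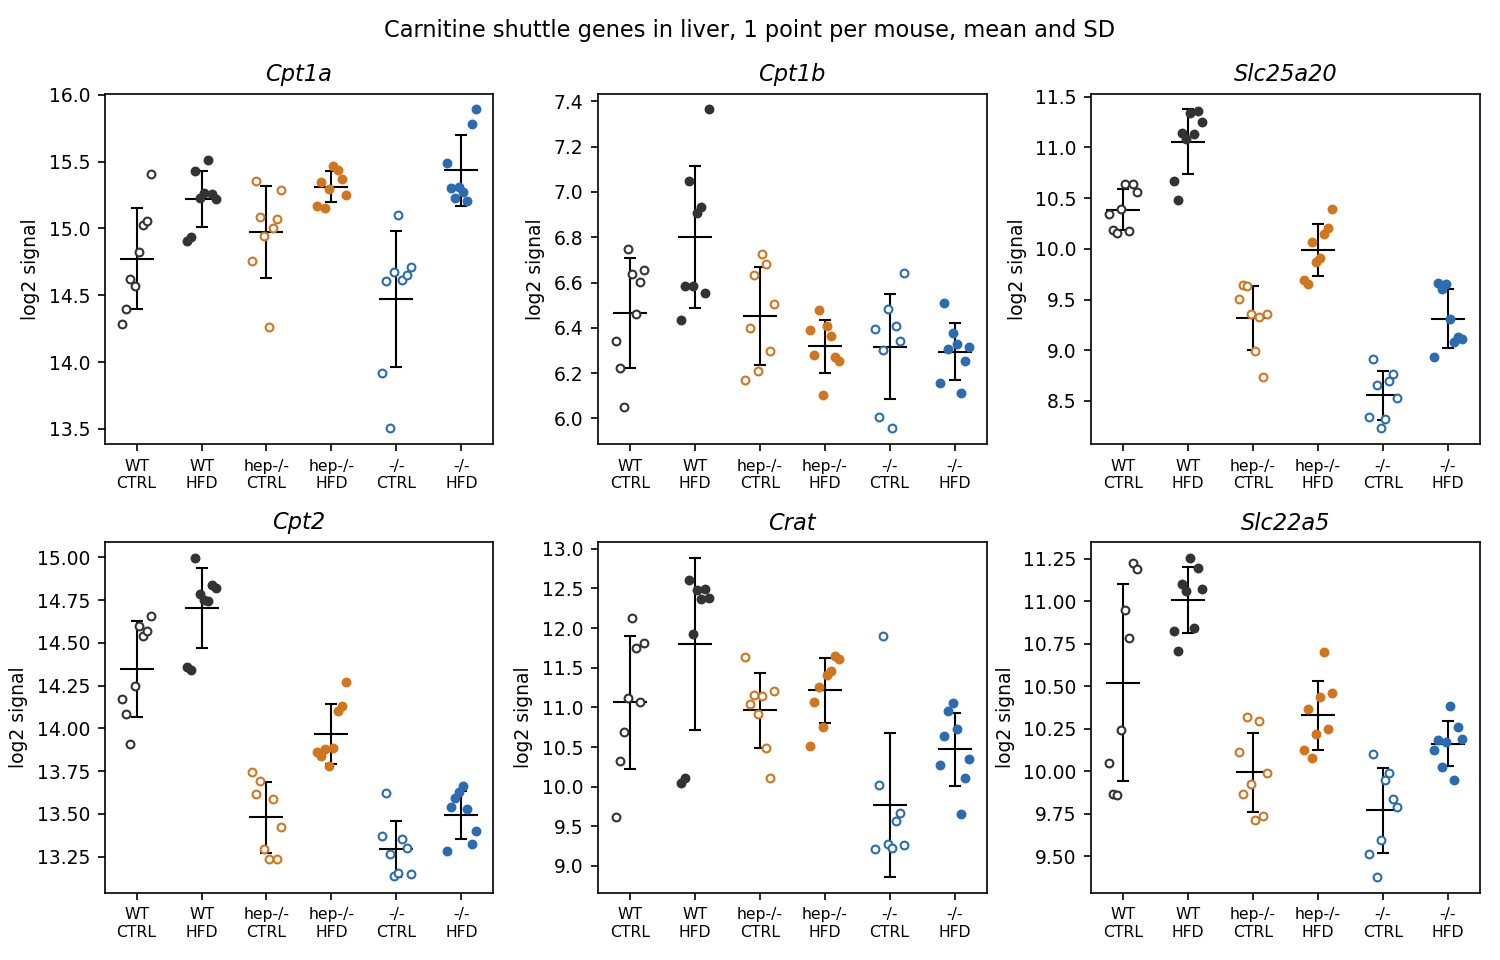
Log2 signal of the 6 carnitine shuttle genes in liver (vertical axis) for the 6 groups (horizontal axis: WT, Pparα hep-/- and Pparα-/- mice on CTRL, open points, or HFD, filled points), 1 point per mouse, with the group mean as a bar and the SD as an error bar, n = 8. Slc25a20 and Cpt2 step down from WT to the knockouts, Cpt1a does not, and in Crat 2 WT mice on HFD lie at 10.05 and 10.11 while the other 6 lie at 11.93 or above.

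Import of carnitine was examined first. For Slc22a5, the plasma membrane carnitine transporter, WT mice on CTRL ran from 9.86 through a median of 10.51 to 11.23 and on HFD from 10.71 through 11.07 to 11.26. Pparα hep-/- mice ran from 9.71 through 9.96 to 10.32 on CTRL and from 10.08 through 10.31 to 10.70 on HFD, and Pparα-/- mice from 9.38 through 9.81 to 10.103 on CTRL and from 9.95 through 10.18 to 10.38 on HFD. On HFD both knockouts lay wholly below WT, whereas on CTRL their ranges overlapped that of WT, whose mice were the most spread (SD 0.58).
Slc22a5 rose on HFD in all 3 genotypes, by 0.65 ± 0.13 in WT (adjusted p = 0.000431), 0.44 ± 0.11 in Pparα hep-/- (adjusted p = 0.0044) and 0.35 ± 0.12 in Pparα-/- mice (adjusted p = 0.0243). The last call was lost without Pparα-/- CTRL replicate 1 (0.29, adjusted p = 0.073), and the Pparα hep-/- call was lost without array weights (0.40, adjusted p = 0.0948) and without the wash batch term (0.33, adjusted p = 0.0715). Against WT, Slc22a5 was lower by 0.47 ± 0.13 on CTRL and 0.68 ± 0.12 on HFD in Pparα hep-/- mice and by 0.61 ± 0.13 and 0.91 ± 0.12 in Pparα-/- mice, all 4 called (adjusted p from 1.17e-08 to 0.00554). The CTRL differences within wash batch 2 were -0.73 (adjusted p = 0.0203) and -0.91 (adjusted p = 0.00419), and within wash batch 1 they were -0.19 (adjusted p = 0.445) and -0.29 (adjusted p = 0.141). The WT diet difference was 1.06 (adjusted p = 0.000125) within wash batch 1 and 0.32 (adjusted p = 0.431) within wash batch 2, and those of the knockouts passed in neither batch alone (0.35 to 0.51, adjusted p from 0.075 to 0.169). Between the knockouts the difference was -0.14 on CTRL (95% interval -0.39 to 0.10) and -0.23 on HFD (adjusted p = 0.101). The dimmer Slc22a5 probe kept the call in WT on HFD (0.55, adjusted p = 0.000732) but did not pass in Pparα hep-/- (0.13) or Pparα-/- mice (0.18), nor between Pparα hep-/- and WT mice on CTRL (-0.23, adjusted p = 0.137).

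For the first step at the mitochondrion, Cpt1a, which encodes the liver form of CPT1, was called higher on HFD in 2 of 3 genotypes and in no comparison of a knockout with WT. WT mice ran from 14.29 through a median of 14.72 to 15.41 on CTRL and from 14.91 through 15.24 to 15.51 on HFD, Pparα hep-/- mice from 14.27 through 15.04 to 15.36 and from 15.15 through 15.32 to 15.47, and Pparα-/- mice from 13.50 through 14.64 to 15.10 and from 15.21 through 15.31 to 15.89. In Pparα-/- mice the diets did not overlap, and in the other genotypes they did.
Cpt1a rose on HFD by 0.55 ± 0.15 in WT (adjusted p = 0.00878) and by 0.92 ± 0.14 in Pparα-/- mice (adjusted p = 5.45e-06), a 1.9-fold difference, while in Pparα hep-/- mice the difference was 0.35 ± 0.13 (adjusted p = 0.0534). That last difference passed when any 1 of 8 arrays was left out, with slide as a block (0.38, adjusted p = 0.0264) and with a stricter filter (0.35, adjusted p = 0.0426). The WT call was lost without array weights (0.45, adjusted p = 0.0541), and within the wash batches the WT difference was 0.68 (adjusted p = 0.0116) and 0.44 (adjusted p = 0.335). The difference in diet response between Pparα hep-/- and Pparα-/- mice was -0.58 ± 0.19 (adjusted p = 0.0799).
Neither knockout differed from WT in Cpt1a beyond the threshold, with 95% intervals, not adjusted for the number of probes, of -0.45 to 0.18 for Pparα-/- on CTRL, -0.03 to 0.51 for Pparα-/- on HFD, 0.0040 to 0.61 for Pparα hep-/- on CTRL and -0.17 to 0.37 for Pparα hep-/- on HFD. With slide as a block Cpt1a was called higher in Pparα-/- than WT mice on HFD (0.35, adjusted p = 0.0327), and without Pparα hep-/- CTRL replicate 5 it was called higher in Pparα hep-/- than WT mice on CTRL (0.41, adjusted p = 0.0251). Between the knockouts on CTRL it was lower in Pparα-/- mice by 0.44 ± 0.14 (adjusted p = 0.0168), a call lost without Pparα-/- CTRL replicate 1 (-0.33, adjusted p = 0.0739). It passed in neither wash batch alone (-0.37, adjusted p = 0.222, and -0.58, adjusted p = 0.0569). The Pparα-/- CTRL group held the lowest mice. Replicates 1 and 3 of that group, at 13.92 and 13.50, were the lowest Cpt1a values of all 48 mice.

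Cpt1b, the muscle form of CPT1, was dim, with group medians from 6.31 to 6.75, but well above background on all arrays other than 1 Pparα-/- CTRL array. Its probe also matches a readthrough transcript of Chkb and Cpt1b, so the transcripts cannot be told apart here. WT mice ran from 6.05 through a median of 6.53 to 6.75 on CTRL and from 6.43 through 6.75 to 7.36 on HFD, and each of the 4 knockout groups had its median between 6.31 and 6.45. The WT HFD mice were the highest group and overlapped the WT CTRL mice.
Cpt1b rose on HFD in WT mice by 0.40 ± 0.11 (adjusted p = 0.00767), a call lost without WT HFD replicate 8, the highest mouse at 7.36 (0.26, adjusted p = 0.0783). That WT difference was 0.28 (adjusted p = 0.205) within wash batch 1 and 0.58 (adjusted p = 0.0389) within wash batch 2. The HFD differences in Pparα hep-/- (-0.11 ± 0.09) and Pparα-/- mice (-0.04 ± 0.10) did not pass. On HFD Cpt1b was lower than in WT by 0.51 ± 0.10 in Pparα hep-/- (adjusted p = 8.63e-05) and 0.58 ± 0.10 in Pparα-/- mice (adjusted p = 2.72e-06). Wash batch 1 on its own gave -0.28 (adjusted p = 0.153) and -0.26 (adjusted p = 0.136), whereas wash batch 2 gave -0.74 (adjusted p = 0.000708) and -0.84 (adjusted p = 5.93e-06).
None of the 3 tested skeletal muscle markers was called between the diets in WT mice, but Mylpf was called lower in Pparα hep-/- than WT mice on HFD (-0.34, adjusted p = 0.0243), with -0.25 in Pparα-/- mice (adjusted p = 0.0713). Their summed intensity in WT mice ran from 174 to 1794 with a median of 259 on CTRL and from 234 to 302 with a median of 255 on HFD, and on HFD it ran from 215 to 388 (median 244) in Pparα hep-/- and from 219 to 326 (median 256) in Pparα-/- mice. Ckm and Acta1, not among the 3, were well above background on at most 3 and 6 of the 48 arrays.

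Slc25a20, the inner membrane carrier, had the largest differences from WT of the 6 genes in both knockouts and on both diets, and it was called in all 3 diet comparisons and in all 4 comparisons with WT. WT mice ran from 10.16 through a median of 10.37 to 10.64 on CTRL and from 10.48 through 11.14 to 11.36 on HFD. Pparα hep-/- mice ran from 8.73 through 9.36 to 9.65 on CTRL and from 9.65 through 9.99 to 10.39 on HFD, and Pparα-/- mice from 8.23 through 8.59 to 8.91 on CTRL and from 8.94 through 9.22 to 9.67 on HFD. On either diet WT lay wholly above both knockouts, and in each knockout the diets did not overlap. On both diets the Pparα hep-/- and Pparα-/- ranges overlapped, with 6 of 8 Pparα-/- mice below the lowest Pparα hep-/- mouse.
Against WT, Slc25a20 was 2.11-fold lower in Pparα hep-/- mice on CTRL (-1.08 ± 0.14, adjusted p = 1.14e-07) and 2.23-fold lower on HFD (-1.16 ± 0.12, adjusted p = 1.59e-09). In Pparα-/- mice it was 3.56-fold lower on CTRL (-1.83 ± 0.14, adjusted p = 2.5e-14) and 3.69-fold lower on HFD (-1.88 ± 0.12, adjusted p = 4.03e-17). The step from Pparα hep-/- to Pparα-/- mice was itself called, at -0.75 ± 0.13 on CTRL (adjusted p = 1.06e-05) and -0.73 ± 0.12 on HFD (adjusted p = 2.23e-06). Within the wash batches the CTRL step was -0.55 (adjusted p = 0.103) and -0.77 (adjusted p = 0.000332), and the HFD step -0.49 (adjusted p = 0.0415) and -0.86 (adjusted p = 5.17e-05). Slc25a20 rose on HFD in WT by 0.78 ± 0.14, in Pparα hep-/- mice by 0.71 ± 0.12 and in Pparα-/- mice by 0.73 ± 0.13 (adjusted p from 4.44e-05 to 9.7e-05). The diet responses differed between genotypes by 0.08 (95% interval -0.30 to 0.45) for WT minus Pparα hep-/- and by 0.05 (-0.33 to 0.43) for WT minus Pparα-/- mice.

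Cpt2, which rebuilds acyl-CoA inside the mitochondrion, ran in WT from 13.91 through a median of 14.39 to 14.66 on CTRL and from 14.34 through 14.77 to 14.996 on HFD. In Pparα hep-/- mice it ran from 13.24 through 13.51 to 13.75 and from 13.78 through 13.88 to 14.27, and in Pparα-/- mice from 13.14 through 13.28 to 13.62 and from 13.28 through 13.53 to 13.66. All knockout mice lay below all WT mice of the same diet, and on HFD the knockouts did not overlap each other either.
Cpt2 was lower than in WT by 0.86 ± 0.10 on CTRL and 0.78 ± 0.09 on HFD in Pparα hep-/- mice and by 1.00 ± 0.10 and 1.30 ± 0.09 in Pparα-/- mice (adjusted p from 7.66e-17 to 7.91e-09). It rose on HFD by 0.48 ± 0.10 in WT (adjusted p = 0.000537) and 0.56 ± 0.08 in Pparα hep-/- mice (adjusted p = 8.97e-06). The WT difference was 0.68 (adjusted p = 0.00125) within wash batch 1 and 0.34 (adjusted p = 0.188) within wash batch 2. The Pparα hep-/- difference passed in both (0.71 and 0.47). In Pparα-/- mice the HFD difference was 0.18 ± 0.09 (adjusted p = 0.137), with 0.37 (adjusted p = 0.0342) in wash batch 1 and 0.0045 (adjusted p = 0.986) in wash batch 2, and 0.23 with slide as a block (adjusted p = 0.0478). The responses of Pparα hep-/- and Pparα-/- mice differed by 0.38 ± 0.12, which missed the threshold (adjusted p = 0.0739), as did WT minus Pparα-/- (0.30 ± 0.13, adjusted p = 0.119). The dimmer Cpt2 probe passed for WT minus Pparα-/- (0.48, adjusted p = 0.0386) and for Pparα-/- against Pparα hep-/- mice on CTRL (-0.32, adjusted p = 0.0268, against -0.15 and 0.253 for the brighter probe), and its call was the same in the other 10 comparisons.

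Crat, carnitine acetyltransferase, was the most spread of the 6 genes. WT mice ran from 9.62 through a median of 11.09 to 12.13 on CTRL and from 10.05 through 12.37 to 12.61 on HFD, Pparα hep-/- mice from 10.11 through 11.09 to 11.63 and from 10.52 through 11.34 to 11.64, and Pparα-/- mice from 9.22 through 9.42 to 11.91 and from 9.65 through 10.49 to 11.05. No pair of groups was separated. In the Pparα-/- CTRL group 1 mouse, replicate 3 at 11.91, stood above the other 7, which reached 10.02.
Crat rose on HFD by 1.22 ± 0.32 in WT (adjusted p = 0.00484) and 0.85 ± 0.28 in Pparα-/- mice (adjusted p = 0.0227). In Pparα hep-/- mice it differed by 0.40 ± 0.27 (adjusted p = 0.309). Without array weights, so that every array counted equally, the WT difference was 0.74 (adjusted p = 0.189) and the Pparα-/- difference 0.70 (adjusted p = 0.202). Neither was called, and which arrays lay behind the loss of these calls was not tested. The Pparα-/- call was also lost without HFD replicate 3 (0.74, adjusted p = 0.059), and the dimmer Crat probe gave 0.25 there (adjusted p = 0.281). Neither call held within a single wash batch, with 1.39 (adjusted p = 0.0521) and 1.29 (adjusted p = 0.1001) in WT and 1.00 (adjusted p = 0.122) and 0.74 (adjusted p = 0.174) in Pparα-/- mice.
Against WT, Crat was lower in Pparα-/- mice by 1.32 ± 0.32 on CTRL (adjusted p = 0.00117) and 1.69 ± 0.28 on HFD (adjusted p = 2.44e-06). In Pparα hep-/- mice it was lower on HFD (-0.87 ± 0.28, adjusted p = 0.0179) and not on CTRL (-0.04 ± 0.31, 95% interval -0.67 to 0.58). The Pparα hep-/- difference on HFD was lost without array weights (-0.59, adjusted p = 0.334) and without WT HFD replicate 7 (adjusted p = 0.0807) or 8 (adjusted p = 0.0635). Pparα-/- mice were lower than Pparα hep-/- mice on CTRL (-1.28 ± 0.29, adjusted p = 0.000701) and on HFD (-0.82 ± 0.26, adjusted p = 0.0133), the latter lost without array weights (-0.75, adjusted p = 0.164), without Pparα-/- HFD replicate 7 (adjusted p = 0.0578) and without Pparα hep-/- HFD replicate 6 (adjusted p = 0.0593). Within wash batch 1 alone, of the Crat genotype differences only Pparα-/- against WT on HFD passed (-1.46, adjusted p = 0.0122), with -1.07 (adjusted p = 0.103) for the same on CTRL and -0.84 (adjusted p = 0.333) and -0.47 (adjusted p = 0.449) between the knockouts on CTRL and HFD. Within wash batch 2 these 4 passed, at -1.97, -1.41, -1.47 and -1.11 in turn. Pparα hep-/- against WT on HFD passed in neither batch (-0.98, adjusted p = 0.139, and -0.86, adjusted p = 0.124). The dimmer Crat probe did not pass for Pparα-/- against WT on CTRL (-0.43, adjusted p = 0.0791) nor between the knockouts on either diet.

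As a set, all 6 genes were called higher on HFD in WT mice, where 8.6% of all tested probes were called higher, with a median difference of 0.60 against -0.01 over all probes. Without array weights 4 were called, and Cpt1a and Crat were not. In Pparα hep-/- mice 3 were called higher (Slc25a20, Cpt2 and Slc22a5) beside 9.46% of probes, and in Pparα-/- mice 4 (Cpt1a, Slc25a20, Crat and Slc22a5) beside 12.2%. Their medians were 0.42 and 0.54. The diet comparisons of the 3 genotypes use separate mice.

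**Figure D2:**
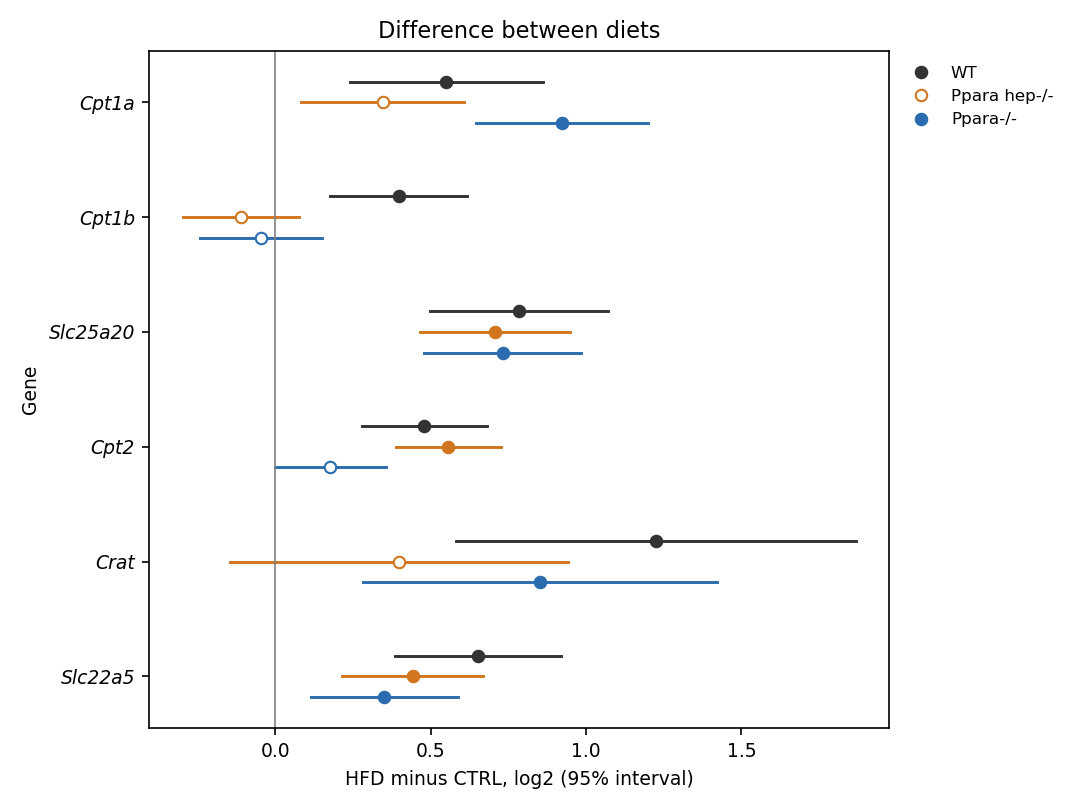
Difference between HFD and CTRL in log2 units (horizontal axis) for each gene (vertical axis) in WT, Pparα hep-/- and Pparα-/- mice, with 95% intervals as lines and filled points where the adjusted p was at most 0.05, n = 8 per group. All 6 WT points are filled and lie between 0.40 and 1.22, and the Slc25a20 points lie at 0.78, 0.71 and 0.73.

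By the brighter probe of each gene, Cpt1b was the only member with a diet response called different between genotypes, beside the call of the dimmer Cpt2 probe given above. Its WT response exceeded the Pparα hep-/- response by 0.51 ± 0.14 (adjusted p = 0.0192) and the Pparα-/- response by 0.44 ± 0.15 (adjusted p = 0.0354), beside 5.79% and 7.42% of all probes called in that direction. The first call was lost without WT HFD replicate 8 (0.38, adjusted p = 0.0602) and the second when any 1 of 10 arrays was left out, with an adjusted p of up to 0.132, and neither passed without array weights (0.43 and 0.36). Between Pparα hep-/- and Pparα-/- mice no member was called, and 3.42% of all probes were.

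For genotype on CTRL, 4 members were called lower in Pparα-/- than WT mice (Slc25a20, Cpt2, Crat and Slc22a5) beside 18.7% of probes, and 3 in Pparα hep-/- mice (Slc25a20, Cpt2 and Slc22a5) beside 13.4%. On HFD 5 were lower in Pparα-/- mice beside 24% of probes and 5 in Pparα hep-/- mice beside 13.4%, and Cpt1a was the member left out in both. The median differences from WT were -0.81 and -0.26 on CTRL and -1.11 and -0.73 on HFD, in Pparα-/- and Pparα hep-/- mice in turn. Between the knockouts, 3 members were lower in Pparα-/- mice on CTRL (Cpt1a, Slc25a20 and Crat) beside 13% of probes, and 3 on HFD (Slc25a20, Cpt2 and Crat) beside 15.4%. The comparisons with WT on one diet share the WT mice. No member was called higher in a knockout, apart from Cpt1a under the alternatives given with its values.

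**Figure D3:**
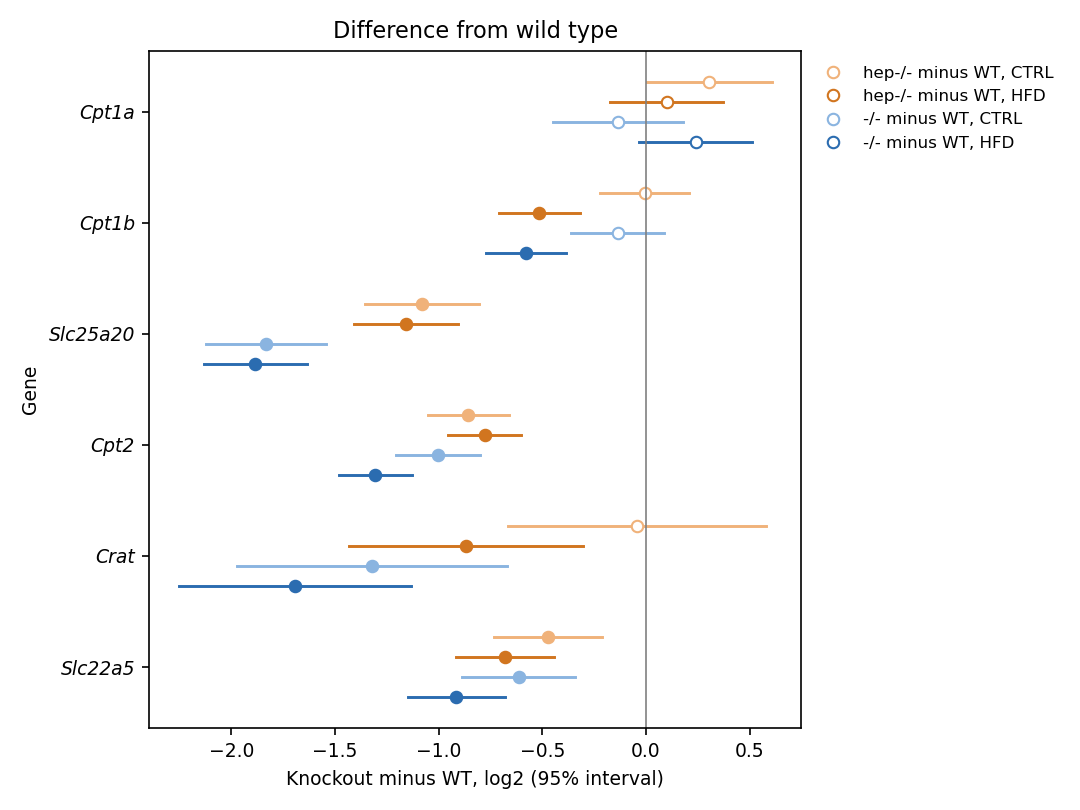
Difference from WT in log2 units (horizontal axis) for each gene (vertical axis), for Pparα hep-/- and Pparα-/- mice on CTRL and HFD, with 95% intervals as lines and filled points where the adjusted p was at most 0.05, n = 8 per group. Slc25a20 lies at -1.08 and -1.16 in Pparα hep-/- and at -1.83 and -1.88 in Pparα-/- mice, and the 4 Cpt1a points are open.

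In whole liver, fewer cells of a type and less RNA per cell cannot be told apart. The 5 hepatocyte markers were well above background on all 48 arrays, and their summed intensity had group medians between 1304680 and 1373190. That sum is mostly Alb, Serpina1a and Ttr, which are very bright (mean log2 18.90, 18.80 and 17.97). Quantile normalization gives every array the same distribution, so the sum cannot show whether hepatocyte content changed. Of the 5, 2 were called lower in Pparα-/- than WT mice on CTRL, Apoa1 (-0.51, adjusted p = 2.55e-07) and Cps1 (-0.62, adjusted p = 0.0224), and both were also called lower in Pparα-/- mice on HFD (-0.18 and -0.46) and in Pparα hep-/- mice on CTRL (-0.25 and -0.56), while in Pparα hep-/- mice on HFD Apoa1 was called (-0.17) and Cps1 was not (-0.21). Cps1 was also called lower on HFD than on CTRL in WT (-0.88), Pparα hep-/- (-0.53) and Pparα-/- mice (-0.71), whereas Apoa1 was called higher in Pparα-/- mice (0.23, adjusted p = 0.00774). Of the 5 Kupffer cell and macrophage markers, 4 were called higher in Pparα-/- than WT mice on HFD and 3 in Pparα hep-/- mice. On HFD against CTRL, none of the 5 was called in WT. In Pparα hep-/- mice 3 were higher, beside 9.46% of all probes, and in Pparα-/- mice 4, beside 12.2%. Their summed intensity on HFD ran from 8700 to 54292 in WT (median 21212), from 28209 to 53006 in Pparα hep-/- (median 35540) and from 29211 to 72550 in Pparα-/- mice (median 55084). Stellate cell markers were called higher than in WT on HFD in Pparα-/- (4 of 4) and Pparα hep-/- mice (3 of 4), and on HFD against CTRL 4 and 2 of them were higher, with none in WT. On CTRL, Lrat was called higher in Pparα hep-/- than WT mice (0.87, adjusted p = 0.00124). Neutrophil markers were called higher than in WT on HFD in Pparα-/- (2 of 3) and Pparα hep-/- mice (1 of 3), and on HFD against CTRL 2 were higher in Pparα-/- mice and none in the other genotypes. On CTRL, Ly6g was called higher in Pparα hep-/- than WT mice (0.25, adjusted p = 0.047). Of the 3 endothelial markers, 2 were higher than in WT in each knockout on both diets, with summed endothelial intensities of 4455 to 6418 in WT and 7833 to 11644 in Pparα-/- mice on CTRL. Of the T and B cell list, Cd3e (-0.30) and Ptprc (-0.22) were lower in Pparα hep-/- than WT mice on HFD. Ptprc is not confined to T and B cells, and Cd79a was not tested. Cd3e and Ptprc were called higher in Pparα-/- than Pparα hep-/- mice on CTRL (0.35 and 0.27) and HFD (0.21 and 0.19). Cela2a, the 1 tested pancreas marker, was lower in Pparα hep-/- than WT mice on HFD (-1.30, adjusted p = 7.39e-06) and CTRL (-0.61, adjusted p = 0.0461). In Pparα hep-/- mice it was also lower on HFD than on CTRL (-1.20, adjusted p = 3.54e-05). Of the 3 red blood cell markers, Alas2 was higher in Pparα-/- than WT mice on CTRL (0.88, adjusted p = 3.27e-06). The highest summed neutrophil intensity of a WT HFD mouse was 29595, against a group median of 1103. The part of these cells in the member results was not tested.

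Mice of the same group also differed together. In the WT HFD group, replicates 1 and 2 were the lowest mice in Cpt1a (14.91 and 14.94), Slc25a20 (10.67 and 10.48), Cpt2 (14.36 and 14.34), Crat and Slc22a5 (10.82 and 10.71), as well as in Ppara (both 14.65), and their array weights were 0.537 and 0.343. With group means and the wash batch removed, all 15 pairs of the 6 genes correlated positively over the 48 arrays, and 8 pairs passed at an adjusted p of at most 0.05 (two-sided permutation test with 100000 permutations, Benjamini-Hochberg over the 15 pairs, for Pearson and for Spearman). Within wash batch 1 alone, Cpt1a turned negative with Cpt1b (r = -0.07), Slc25a20 (-0.12) and Crat (-0.29). Over all arrays these were 0.01, 0.14 and 0.05. The arrays share their normalization. Slc25a20 and Cpt2 had the highest correlation (r = 0.76, rho = 0.75, adjusted p = 3.75e-05 for both by permutation, from the smallest p that the permutations can give), and it was 0.74 without the 2 arrays farthest from the Slc25a20 median and 0.72 and 0.82 within the wash batches. Cpt2 with Slc22a5 (r = 0.71, rho = 0.74), Cpt2 with Crat (r = 0.65, rho = 0.71) and Slc25a20 with Crat (r = 0.65, rho = 0.69) had the same adjusted p.
Cpt1a correlated with Slc22a5 (r = 0.58, rho = 0.47, permutation adjusted p = 6e-05 and 0.00167) and over all 48 arrays with none of the other members beyond the threshold. Without the 2 arrays farthest from the Cpt1a median it also passed with Crat (r = 0.37, adjusted p = 0.0234, against 0.05 and 0.775 over all arrays). Cpt1b passed with Crat alone (r = 0.38, rho = 0.32, permutation adjusted p = 0.0154 and 0.048). Without the 2 arrays farthest from the Cpt1b median r was 0.27 (adjusted p = 0.124), and the pair did not pass. Within the wash batches r was 0.27 (adjusted p = 0.293) and 0.51 (adjusted p = 0.024). Slc25a20 with Slc22a5 (r = 0.50) and Crat with Slc22a5 (r = 0.43) passed over all arrays and within wash batch 2 but not within wash batch 1 (r = 0.41 and 0.29).

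**Figure D4:**
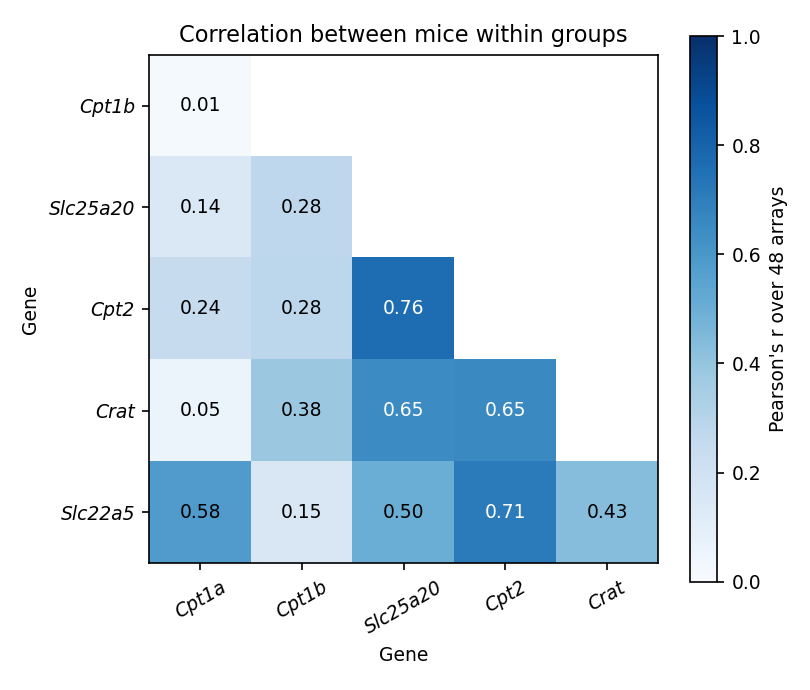
Pearson's r between pairs of the 6 genes (both axes) over the 48 arrays, after removal of group means and the wash batch, with r printed in each square and the shade running from 0 to 1. Slc25a20, Cpt2, Crat and Slc22a5 lie between 0.43 and 0.76 with each other, and Cpt1b lies at 0.38 or below with every other gene.

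The genes whose pattern over all 48 arrays was most like each member are given as a description, since the 6 groups drive much of it. For Slc25a20 they were Dhrs4 (r = 0.96, rho = 0.97), Vnn1 (r = 0.96, rho = 0.96) and Cpt2 (r = 0.96, rho = 0.96). For Cpt2 they were Vnn1 (r = 0.96), Slc25a20 and Hsdl2 (r = 0.95). For Slc22a5 they were Oplah (r = 0.91), Rab30 (r = 0.90) and Cpt2 (r = 0.90). For Crat they were a Cyp4a31 probe (r = 0.90), Cyp4a10 (r = 0.89) and a further Cyp4a31 probe (r = 0.86), fatty acid omega-hydroxylases whose near-identical sequences may share signal. For Cpt1b, Oxnad1 (r = 0.73) and 1700029I15Rik (r = 0.72) were among the closest. For Cpt1a they were 4833417J20Rik (r = 0.89, rho = 0.76), Pdcd6 (r = 0.79) and Ermp1 (r = 0.76).

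The enzymes that act after the shuttle were counted from lists of genes. Of 17 mitochondrial beta-oxidation genes, 15 rose on HFD in WT mice and 13 in each knockout, with none lower, and 11 were lower in Pparα-/- than WT mice on CTRL (3 higher) and 12 on HFD, with medians of -0.37 and -0.52 against -0.02 and -0.03 over all probes. In Pparα hep-/- mice 9 were lower than in WT on CTRL (2 higher) and 11 on HFD, with medians of -0.18 and -0.43. Over all probes 8.6%, 9.46% and 12.2% were called higher on HFD in WT, Pparα hep-/- and Pparα-/- mice. On CTRL and HFD in turn, 18.7% and 24% were called lower than in WT in Pparα-/- mice. In Pparα hep-/- mice 13.4% were called lower on either diet. The largest drops in Pparα-/- mice on CTRL were in Eci2 (-1.33), an enoyl-CoA isomerase, Etfdh (-1.12), which passes electrons to ubiquinone, Acadvl (-1.08) and Acadl (-0.77), acyl-CoA dehydrogenases.

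Before the shuttle, 4 of 5 acyl-CoA synthetases were tested. On HFD 1 was called higher and 1 lower in WT (median -0.14), 3 lower in Pparα hep-/- (median -0.41) and 1 lower in Pparα-/- mice (median -0.22). Acsl1, which activates long-chain fatty acids, rose on HFD in WT mice (0.70, adjusted p = 0.000411), and its differences in Pparα hep-/- (0.17) and Pparα-/- mice (0.12) did not pass. Acsl4 was the one lower in WT mice (-0.49, adjusted p = 0.0123). On HFD 3 of the 4 were lower in Pparα-/- than WT mice, Acsl3 (-0.86), Acsl1 (-0.77) and Acsl5 (-0.61), beside 24% of all probes. In Pparα hep-/- mice 3 of the 4 were also lower than in WT on HFD (median -0.57), beside 13.4% of all probes. Of 8 genes that set malonyl-CoA, 2 were lower on HFD in WT mice, Acaca (-1.03, adjusted p = 0.000543), which makes malonyl-CoA, and Prkaa2 (-0.37), a catalytic subunit of AMP-activated kinase, and none were higher, with a median of -0.29. Over all tested probes 6248 were called in that comparison, 45.9% of them higher. Acaca was also lower on HFD in Pparα hep-/- (-0.996, adjusted p = 0.000129) and Pparα-/- mice (-0.58, adjusted p = 0.0217). Against WT, 5 of the 8 were lower and 1 higher in Pparα-/- mice on CTRL (median -0.28), beside 18.7% of all probes lower. On HFD 4 were lower and 2 higher (median -0.32), beside 24% lower. In Pparα hep-/- mice 2 were lower and 1 higher on either diet (medians -0.07 and 0.09), beside 13.4% lower.

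Of 9 further carnitine genes, 4 rose on HFD in WT mice, Crot (1.03), the peroxisomal carnitine octanoyltransferase, Slc22a4 (0.59), a transporter related to Slc22a5, Bbox1 (0.40), the last enzyme of carnitine synthesis, and Aldh9a1 (0.40), an earlier one. In Pparα-/- mice 4 of the 9 rose on HFD, and in Pparα hep-/- mice 3 rose and 1 fell. Over all probes 8.6% were called higher on HFD in WT, 12.2% in Pparα-/- and 9.46% in Pparα hep-/- mice. For Slc22a4, too, the WT response to diet exceeded that of Pparα hep-/- (0.75, adjusted p = 0.00675) and Pparα-/- mice (0.59, adjusted p = 0.0262), whereas for Slc16a9 it lay below that of Pparα-/- mice (-0.72, adjusted p = 0.0106). On CTRL 1 of the 9 was lower in Pparα-/- than WT mice, Aldh9a1 (-0.25, adjusted p = 0.045), and none were higher, with a median of 0.05, and in Pparα hep-/- mice 2 were higher and none lower. Over all probes 18.7% were called lower in Pparα-/- mice there. In Pparα hep-/- mice 8241 of the 33323 were called, 45.7% of them higher. On HFD 3 were lower in Pparα-/- mice and 1 higher, the latter Slc16a9 (0.78, adjusted p = 2.14e-06), a carnitine efflux transporter, and in Pparα hep-/- mice 3 were lower and 3 higher. Beside these, 24% of all probes were called lower in Pparα-/- and 13.4% in Pparα hep-/- mice. Of all calls there, 47.6% and 49.7% were higher.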

How the data were processed

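Liver RNA was hybridised to Agilent Sureprint G3 Mouse one-colour arrays by the authors, 1 array per mouse, 48 arrays on 6 slides of 8 and in 2 wash batches. The deposited scanner files hold linear intensities from Feature Extraction 10.10.1.1, and the deposited value table holds the authors' processed log2 values of the same arrays, which correlated at 0.999 or above with the values used here.

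The median signal intensity was taken as log2, outlier spots and control spots were left out, spots of 1 probe were averaged, and a probe was kept where 4 or more of the 8 arrays of any group had it well above background (33323 of 56605, with 195 missing values left as missing). Median array intensities ran from 56 to 91 over backgrounds of 20 to 36. Values were quantile normalized and fitted with limma 3.58.1 in R 4.3.3, with 6 group means, a wash batch term and array weights, and 12 contrasts. Adjusted p-values are Benjamini-Hochberg values of limma within a contrast. The procedure was tested on simulated data.

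Groups came from the labels. Named genes were the 6 members, Ppara, up to 4 called genes of each list that changed most, and the 3 closest genes by correlation. The members and lists were chosen with earlier results of these data known. Alternatives were no weights, no wash batch term, slide or replicate number as a block, other filters, the processed signal scaled to its 75th percentile, normexp background correction with an offset of 50, the authors' log2 values, each wash batch alone and each array left out. The correlation within each wash batch was added after seeing the data. A few genes and sequences that these rules would name are not reported here.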

Additional observations from a re-analysis of the deposited data

Results flagged for a closer look

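In Crat, replicate 3 of the Pparα-/- CTRL group, at a log2 signal of 11.91, stood apart from the other 7 mice, the nearest of which was at 10.02. The gap was 0.701 of the group's range, above Dixon's 95% critical value for 8 samples. Of 36 groups tested it was the only one, and chance gives about 1 in 20.

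The diet response of Cpt1b differed between WT and Pparα hep-/- mice by 0.51 and between WT and Pparα-/- mice by 0.44 on the log2 scale, by the interaction term of limma. Both differences share the WT mice.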

How the results depend on the processing

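Of the member differences recomputed under the alternatives (each array left out not counted), 690 kept their direction and side of the threshold, 39 lost a call, 7 gained one and 20 turned direction, none of the latter past the threshold in either setting. The causes were not tested. Without the filter, 2 members in place of 4 were called on HFD in Pparα-/- mice. For diet responses of WT minus Pparα hep-/- mice, 0 members were called without array weights and without the filter, and for WT minus Pparα-/- mice 0 without weights, without the wash batch term and without the filter, and 2 with the scaled processed signal. Within wash batch 1, 5 of the 15 pairs correlated.

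With each array left out in turn, the members called ranged from 5 to 6 on HFD in WT, 3 to 4 in Pparα hep-/- and 3 to 4 in Pparα-/- mice. On CTRL they ranged from 4 to 4 for Pparα-/- against WT, 3 to 4 for Pparα hep-/- against WT and 2 to 3 between the knockouts, and on HFD from 5 to 5, 4 to 5 and 2 to 3. Each of the 3 response differences ranged from 0 to 1.

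Turned differences were, for Cpt1b in Pparα hep-/- against WT mice on CTRL, 0.042 without the wash batch term, 0.017 with the processed signal, 0.026 with normexp, 0.016 with the authors' values and 0.045 in wash batch 2, where Crat was at 0.060. Cpt1a in Pparα hep-/- against WT mice on HFD was at -0.043 with the processed signal and -0.0034 in wash batch 1. Also in wash batch 1, Cpt1b was at 0.063 and 0.049 on HFD in Pparα hep-/- and Pparα-/- mice and at 0.043 and 0.029 between the knockouts on CTRL and HFD, and Cpt1a at 0.065 in Pparα-/- against WT mice on CTRL. Among responses, Slc25a20 was at -0.010 and -0.086 for WT minus Pparα hep-/- and minus Pparα-/- without weights, Cpt2 at 0.013 with slide as a block and 0.082 with the processed signal for WT minus Pparα hep-/-, and Slc22a5 at -0.031 without the wash batch term for Pparα hep-/- minus Pparα-/-.

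Deviations of mice with the same replicate number had a median correlation of 0.022 over 120 pairs, from -0.45 to 0.69, with 35 over 0.1. For mice with other numbers the median was -0.0023. These values alone do not decide whether the numbers pair mice. With the replicate block, Cpt1a passed on HFD in Pparα hep-/- mice (0.42, adjusted p = 0.0118), and Slc25a20 turned to -0.026 for WT minus Pparα hep-/- and 0.078 for Pparα hep-/- minus Pparα-/-. Over all probes, leaving out the weights cut the calls on HFD in Pparα hep-/- mice from 6735 to 1270 and those of the WT minus Pparα hep-/- response from 3472 to 298, with 71.8% higher in place of 55.6%. The processed signal moved the share of higher calls from 46.8% to 35.5% and 49.3% to 35.6% on HFD in Pparα hep-/- and Pparα-/- mice, from 49.7% to 37.8% for Pparα hep-/- against WT on HFD, and from 55.6% to 68.8% and 51.7% to 70.1% for the WT responses.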
